A study of Mus musculus with 8 samples.

Results

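The 10 genes described here are genes of the mammalian circadian clock: Arntl (which encodes BMAL1), Clock, Per1, Per2, Per3, Cry1, Cry2, Nr1d1, Nr1d2 and Dbp. They were chosen by name, with earlier results of these data known, from a table of 49492 gene rows. All 10 were in the table, and all 10 were among the 16232 genes tested, which reached 1 or more in 2 or more samples. RNA-seq libraries of polyA RNA were made from MEFs, mouse embryonic fibroblasts, which are connective tissue cells grown in culture. There were 4 groups with 2 replicates each: Pontin WT and Pontin RA cells, each in normal medium and under glucose starvation. Pontin is the product of Ruvbl1 and serves as an ATPase subunit in complexes that remodel chromatin. Both lines descend from immortalised MEFs with a floxed Pontin gene, both received a Flag-tagged Pontin by lentivirus with hygromycin selection, and in the study Cre virus deleted the endogenous gene. WT cells carried the normal added form. RA cells carried a form in which both arginines that are methylated under starvation were replaced by alanine.

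These groups limit what can be read from clock genes. Each genotype is 1 stably infected line, so a difference between lines and a difference between Pontin forms cannot be told apart. Starved cells were washed and given glucose-free medium with dialyzed serum, so the starved groups differ from the normal ones in serum and handling as well as in glucose. The hour of harvest and any synchronisation of the cells are not given in the sources used here, and each group was sampled once, so no phase or amplitude can be read. Whether replicates were separate cultures is not given either, and p-values measure only the spread between these samples.

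As background, the clock is a feedback loop of transcription. CLOCK and BMAL1 bind as a pair to E-boxes in the promoters of the Per and Cry genes, of Nr1d1 and Nr1d2, and of Dbp. PER and CRY proteins accumulate and shut the pair off. The nuclear receptors REV-ERB alpha and beta, encoded by Nr1d1 and Nr1d2, repress Arntl through ROR elements (ROREs), where ROR receptors activate. DBP activates through D-boxes. Cultured fibroblasts carry such clocks in each cell, and the cells of a dish drift out of step unless a stimulus such as a serum change sets them together.

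The promoter elements of the loop are shown first, because the members are grouped below by the arm of the loop they belong to. RefSeq promoter windows (GRCm38.p6, 250 bases before to 50 after the annotated start) were found for 9 of the 10 genes, 13 windows in all. Per2 had no entry. An E-box, spelled CACGTG, lay in the windows of 2 members, Cry1 and Per1, and in 7.15% of all 32851 windows on either strand. Its variant the E'-box, spelled CACGTT, lay in those of Cry1, Cry2 and Nr1d1 and in 4.68% of all windows. A D-box, spelled TTANGTAA, was found in Per3 alone among members, where it occurred at 2 places, and in 2.32% of all windows. A RORE was found in 1 of the 2 Arntl windows and in 0.384% of all windows. The FOXO element GTAAACA, searched because the study concerns FOXO3a, lay in the Cry1 window and in 3.65% of all windows. No member window held the cyclic AMP response element TGACGTCA, which 1.79% of all windows held. Both strands were searched for all 6 elements, and no matches in the member windows overlapped each other. A match is a run of letters in a short window and not evidence of binding.

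The Cry1 promoter (chr10:85185055-85185304, minus strand) is given for its E-box 60 bases before the start, its E'-box at 79 bases, which reads AACGTG on this strand, and its FOXO element at 95 bases, in that order from right to left and all in capitals. In the promoter of Per1 (chr11:69098699-69098948, plus strand, the first of 2 annotated starts) the capitals mark the E-box 166 bases before the start. Cry2 (chr2:92434070-92434319, minus strand) is shown with its E'-box at 166 bases, again as AACGTG. For Per3 (chr4:151044666-151044915, minus strand) the capitals mark D-boxes 205 and 158 bases before the start. The last line is a 30-base site of Arntl (chr7:113207528-113207557, plus strand) from base 18 to base 47 after the second annotated start, with the RORE in capitals.
Cry1: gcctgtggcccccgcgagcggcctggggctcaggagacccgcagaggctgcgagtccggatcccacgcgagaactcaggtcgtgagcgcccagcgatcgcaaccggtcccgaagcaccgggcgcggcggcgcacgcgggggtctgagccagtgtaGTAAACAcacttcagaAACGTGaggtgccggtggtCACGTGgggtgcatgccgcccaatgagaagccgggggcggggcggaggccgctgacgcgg
Per1: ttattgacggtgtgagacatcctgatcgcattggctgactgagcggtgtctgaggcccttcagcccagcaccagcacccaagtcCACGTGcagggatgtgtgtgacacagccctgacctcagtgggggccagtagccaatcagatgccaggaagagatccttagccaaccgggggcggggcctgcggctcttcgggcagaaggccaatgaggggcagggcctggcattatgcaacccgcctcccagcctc
Cry2: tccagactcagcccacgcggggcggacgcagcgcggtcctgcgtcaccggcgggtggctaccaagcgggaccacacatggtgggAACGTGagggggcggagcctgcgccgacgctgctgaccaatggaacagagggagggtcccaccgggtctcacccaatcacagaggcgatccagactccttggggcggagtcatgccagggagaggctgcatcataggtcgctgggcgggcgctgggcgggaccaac
Per3: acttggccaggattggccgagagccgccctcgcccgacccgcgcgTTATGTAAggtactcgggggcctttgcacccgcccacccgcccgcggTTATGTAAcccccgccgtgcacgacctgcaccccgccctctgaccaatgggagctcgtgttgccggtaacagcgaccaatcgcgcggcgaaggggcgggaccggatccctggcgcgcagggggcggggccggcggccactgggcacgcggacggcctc
Arntl: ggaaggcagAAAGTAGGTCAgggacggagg

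**Figure D1:**
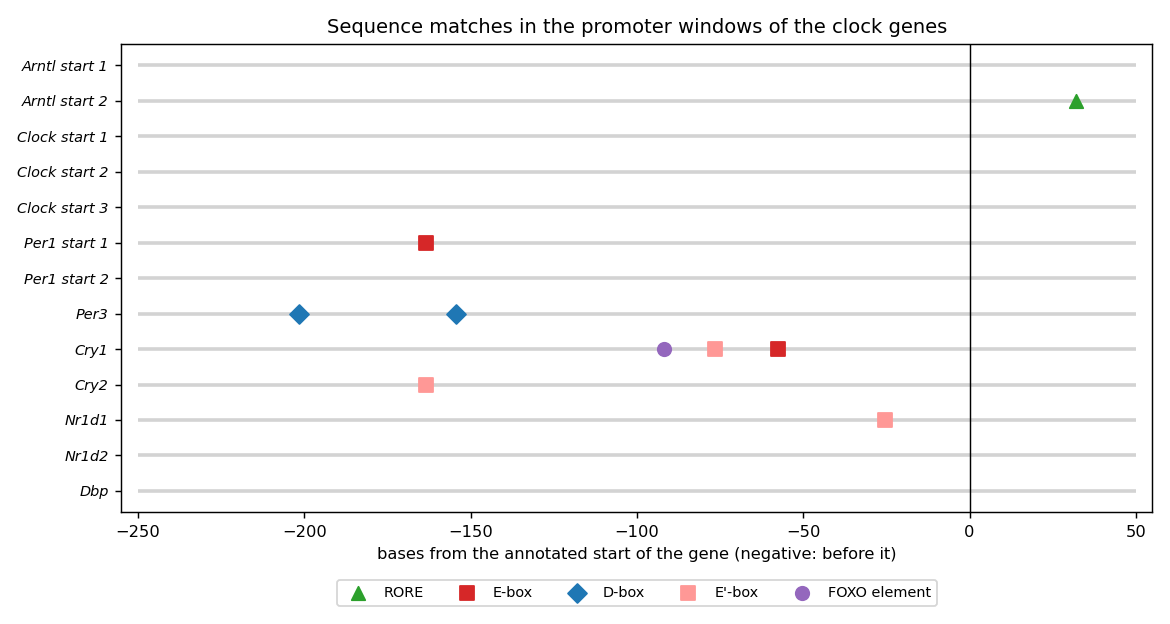
Matches to 5 sequence elements in the 13 promoter windows of 9 clock genes. The x axis gives bases from the annotated start, grey lines are the windows, and symbols stand for the elements named in the legend. Cry1 holds 3 matches before its start, Per3 holds 2 D-boxes, and the windows of Clock, Nr1d2 and Dbp hold none.

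Values are CPM of the scaled library, that is read counts over a library size to which the authors applied a factor for each sample. The libraries held 43205841 to 56363034 reads, and the clock genes had from 193 reads (Dbp) to 7572 reads (Nr1d2) in a sample. A count of 3 reads corresponds to 0.0548 to 0.069. Intervals of the fit cover the spread of these samples, and PCR copies were not marked. The targeted gene Ruvbl1 lay between 27.6 and 28.4 in WT and between 32 and 45.0 in RA, which does not tell the added copy from the endogenous gene. The 8 fibroblast markers summed to between 9645 and 9965 in normal medium. Their sums were 5128 and 5221 in starved WT, and 6760 and 6778 in starved RA. Not every marker shared this fall. Col1a1, Col1a2, Col3a1, Vim and Pdgfra were lower under starvation in both genotypes, and Pdgfrb only in WT. Dcn was higher when starved, with means of 7.44 against 5.90 (WT) and 34.9 against 13.5 (RA). Fn1 was higher in starved RA, at 3173 against 2370, and its WT samples overlapped between media. Markers of leukocytes, endothelium and epithelium summed to at most 6.60. Cd3e and Krt5 were at 0 in every sample. Tubb3, listed as a neural marker, carried a neural sum of 70.0 to 80.8 in normal medium, at most 10.6 in starved WT and 19.7 to 20.2 in starved RA. The part of these shifts in the results below was not tested, and fewer cells of a type and less RNA per cell cannot be told apart in bulk samples.

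Levels of the members were compared per kilobase of exon (GENCODE M21). In WT cells in normal medium Nr1d1 was highest, at 11.2 ± 0.23 (SD, n = 2) per kilobase, followed by Nr1d2 (8.90 ± 0.29), Clock (7.88 ± 0.099), Per1 (4.78 ± 0.091), Cry1 (4.17 ± 0.096), Cry2 (2.84 ± 0.042), Arntl (2.18 ± 0.056) and Dbp (1.68 ± 0.0012). Per3 (1.43 ± 0.13) and Per2 (1.34 ± 0.27) were lowest, and their replicates overlapped. The order in RA cells in normal medium was the same, with overlap between Per1 and Cry1 and between Per3 and Per2. Under starvation Nr1d2 was highest in both genotypes, at 26.1 ± 0.75 per kilobase in WT and 16.9 ± 0.52 in RA. Cry1 moved from the fifth place to the second in WT (15.3 ± 0.27) and to the third in RA (7.47 ± 0.036).

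**Figure D2:**
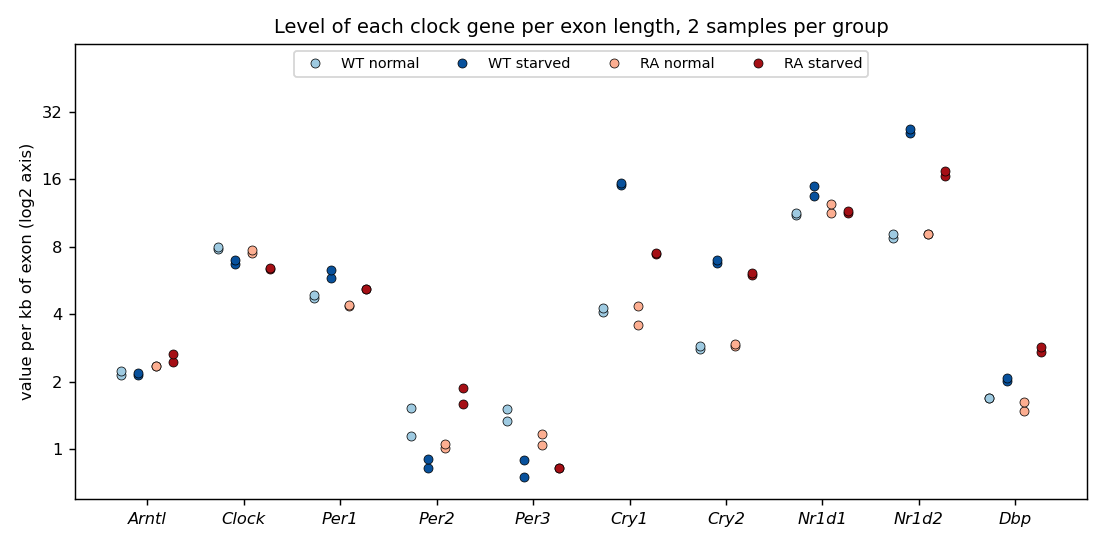
Level of each clock gene per kilobase of exon on a log2 axis, with 1 point per sample and 2 samples per group. In starved WT cells Nr1d2 and Cry1 stood at 26.1 and 15.3 per kilobase, against 8.90 and 4.17 in normal medium.

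The first question was how the clock genes respond when glucose is removed. In WT cells 9 of the 10 members were called (limma, Benjamini-Hochberg (BH) adjusted p under 0.05 over all genes), 6 higher and 3 lower under starvation. The response was broad, since 78.6% of all genes tested were called, 39.3% higher and 39.2% lower. In RA cells 8 members were called, 6 higher and 2 lower, where 68.7% of all genes were called, 35% higher and 33.7% lower. The median log2 change of the members was 0.28 in WT and 0.45 in RA, against 0.0049 and 0.013 over all genes tested. Log2 changes are on the scale of log2(value + 1), which understates the change of low genes such as Dbp and Per2. The response differed between the genotypes by the interaction, the response in RA less that in WT, for 6 members, 2 higher and 4 lower in RA. Among all genes 50.6% were called in the interaction, 24.5% higher and 26.1% lower, so the count itself is near the background.

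**Figure D3:**
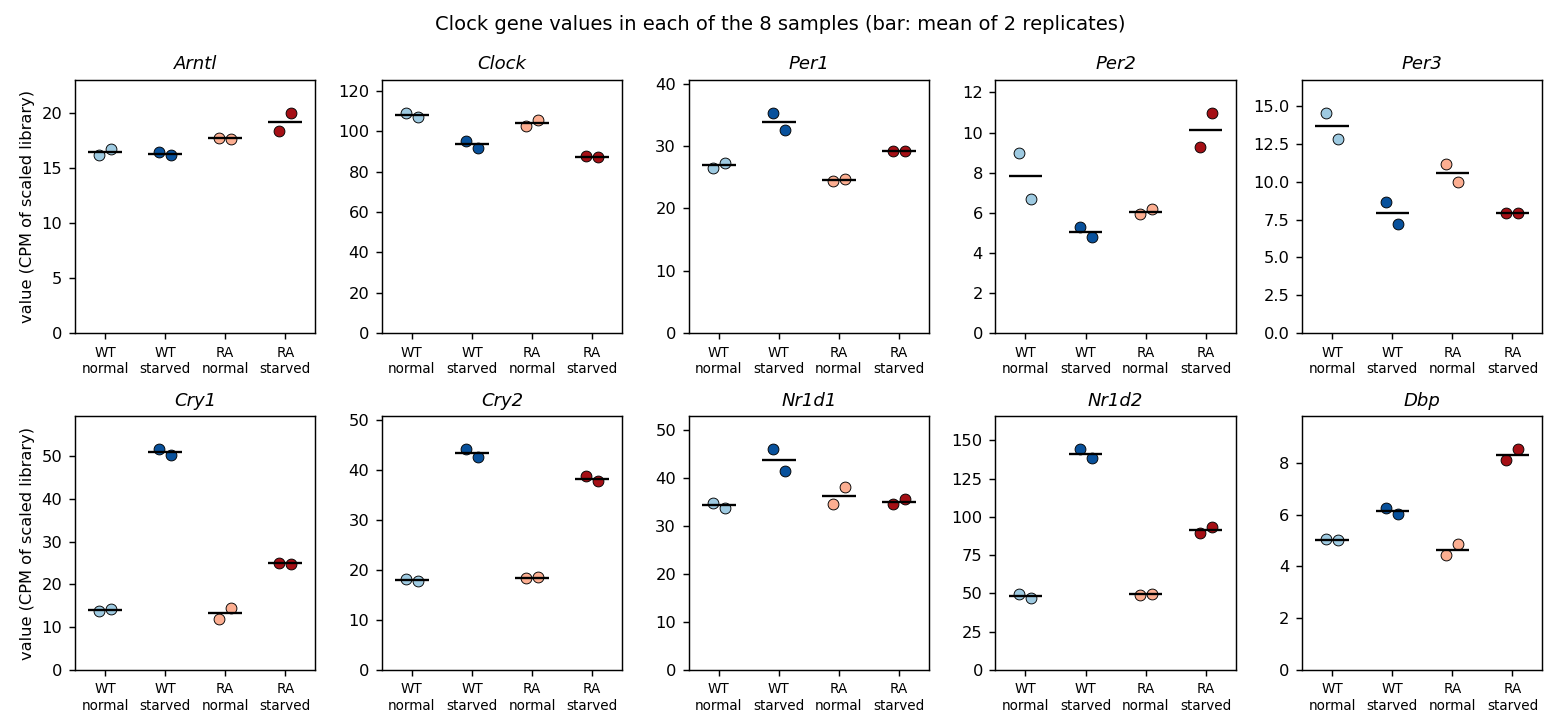
Value of each clock gene in each of the 8 samples, in CPM of the scaled library. Points are samples, bars are means of 2 replicates, and every y axis starts at 0. Cry1 stood at 51.6 and 50.3 in starved WT and at 25.0 and 24.9 in starved RA, while Per2 was highest in starved RA.

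The cryptochromes, repressors of the CLOCK and BMAL1 pair, had large rises. In WT, Cry1 was at 13.7 and 14.1 in normal medium and at 51.6 and 50.3 when starved. In RA it was at 12 and 14.5, and at 25.0 and 24.9 when starved. Starved and normal samples did not overlap in either genotype, and starved RA samples lay between the normal samples and starved WT. The change was 3.66-fold in WT (log2 1.80, SE 0.078, limma adjusted p = 9.07e-13) and 1.89-fold in RA (log2 0.87, SE 0.078, limma adjusted p = 2.97e-08). The interaction was -0.93 (SE 0.11, limma adjusted p = 2.91e-06).

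Cry2, the paralog of Cry1, rose in both genotypes. In WT its values were 18.1 and 17.8 before starvation and 44.0 and 42.6 under it. The RA values were 18.3 and 18.6, then 38.7 and 37.8. Both starved groups lay above both normal groups, and starved RA lay below starved WT. Cry2 rose 2.41-fold in WT (log2 1.23, SE 0.058, limma adjusted p = 3.43e-12) and 2.08-fold in RA (log2 1.02, SE 0.058, limma adjusted p = 9.42e-11). Its interaction of -0.21 (95% interval -0.39 to -0.036, limma adjusted p = 0.0426) was lost with edgeR (BH-adjusted p = 0.0758), with DESeq2 (0.0918), with total-read scaling (0.18), and without any 1 of the 8 samples (0.0503 to 0.128). Exons of D930015M05Rik cover 4.67% of those of Cry2 on the other strand, and how strand was handled is not stated. That gene also stood higher under starvation, at 16 ± 2.0 against 7.21 ± 0.046 in WT and 14.3 ± 0.99 against 7.10 ± 0.26 in RA.

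The REV-ERB genes, which encode repressors of Arntl, responded unequally. Nr1d2 went from 49.3 and 47.0 to 144 and 138 in WT, and from 49.1 and 49.3 to 89.7 and 93.7 in RA. Normal samples of the genotypes overlapped, while all starved WT samples lay above all starved RA samples. That is a rise of 2.93-fold in WT (log2 1.53, SE 0.045, limma adjusted p = 4.4e-15) and 1.86-fold in RA (log2 0.88, SE 0.045, limma adjusted p = 1.81e-11), with an interaction of -0.65 (SE 0.063, limma adjusted p = 3e-07).

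Nr1d1 had a small rise in WT, from 34.9 and 33.9 to 46.0 and 41.5. In RA its starved samples, at 34.6 and 35.6, overlapped the normal ones, at 34.6 and 38.2. The change was 1.27-fold in WT (log2 0.34, SE 0.062, limma adjusted p = 9.67e-05), and in RA it was not called (log2 -0.049, 95% interval -0.18 to 0.083). The interaction was -0.39 (SE 0.088, limma adjusted p = 0.00157). The 3' end of Nr1d1 overlaps Thra on the other strand, over 8.55% of its exon bases. Thra moved the other way in WT, from 49.9 ± 0.94 to 24.5 ± 0.82, and stood at 45.8 ± 0.87 and 35.9 ± 2.0 in RA.

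The Per genes, whose proteins act with the CRY proteins, did not move as a group. In WT, Per2 was at 8.96 and 6.69 in normal medium and at 5.28 and 4.8 when starved. In RA it was at 5.93 and 6.16 in normal medium and at 9.28 and 11.0 when starved. Starved samples lay below normal ones in WT and above them in RA. Per2 fell by 0.54 on the log2 scale in WT (SE 0.12, limma adjusted p = 8.73e-04) and rose by 0.66 in RA (SE 0.12, limma adjusted p = 1.8e-04). The interaction of 1.19 (SE 0.18, 95% interval 0.82 to 1.57, limma adjusted p = 3.12e-05) was the highest of the 10 members. WT replicates in normal medium differed more than in the other groups, and without replicate 1 of that group the change in WT was -0.35 (limma adjusted p = 0.0296).

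Per1, an early responder to serum and hormones, stood at 26.6 and 27.3 in unstarved and 35.4 and 32.6 in starved WT. The RA values were 24.4 and 24.7 in normal medium and 29.3 in both starved samples. Starved samples lay above normal ones in both genotypes. It rose 1.26-fold in WT (log2 0.32, SE 0.060, limma adjusted p = 1.09e-04) and 1.19-fold in RA (log2 0.24, SE 0.060, limma adjusted p = 0.00169). The interaction was not called (-0.078, 95% interval -0.26 to 0.10, limma adjusted p = 0.469).

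Per3 fell in both genotypes, from 14.6 and 12.9 to 8.63 and 7.22 in WT and from 11.2 and 9.98 to 7.91 and 7.93 in RA. The starved groups overlapped each other. It fell by 0.72 on the log2 scale in WT (SE 0.10, limma adjusted p = 6.47e-06) and by 0.38 in RA (SE 0.10, limma adjusted p = 0.00409). The interaction of 0.35 (SE 0.15, 95% interval 0.038 to 0.66) missed the threshold (limma adjusted p = 0.0582) and passed it in 7 of 22 alternatives, among them edgeR (BH-adjusted p = 0.0447), total-read scaling (limma, 0.0326) and leaving out replicate 1 of starved WT (0.0224), replicate 1 of normal RA (0.0391) or replicate 2 of normal WT (0.0424). It was 0.18 with quantile normalization (limma adjusted p = 0.311), and 0.26 without replicate 1 of normal WT (0.211), 0.23 without replicate 2 of starved WT (0.23) and 0.27 without replicate 2 of normal RA (0.179).

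The activators of the loop moved little. In WT, Arntl was at 16.1 and 16.7 in normal medium and 16.4 and 16.1 when starved. In RA it was at 17.7 in both unstarved samples and at 18.3 and 20.0 when starved. Its change was not called in WT (log2 -0.013, 95% interval -0.17 to 0.14, limma adjusted p = 0.874) or in RA (log2 0.11, 95% interval -0.045 to 0.26, limma adjusted p = 0.195). Exons of Gm45355, which stood at 1.03 to 1.82, cover 0.439% of those of Arntl on the other strand. Clock went from 109 and 107 to 95.3 and 91.9 in WT and from 102 and 106 to 87.8 and 87.1 in RA. The groups did not overlap within either genotype, and Clock fell by 0.21 (SE 0.040, limma adjusted p = 1.75e-04) and by 0.25 (SE 0.040, limma adjusted p = 3.73e-05) on the log2 scale. Neither activator was called in the interaction (limma adjusted p = 0.343 for Arntl and 0.57 for Clock), with 95% intervals of -0.096 to 0.34 and -0.16 to 0.080.

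Dbp, a D-box activator driven by the CLOCK and BMAL1 pair, was at 5.04 in both unstarved WT samples and at 6.24 and 6.01 in the starved ones. In RA it was at 4.44 and 4.86 in normal medium and at 8.11 and 8.53 when starved. Starved RA samples were the highest of the 8. Dbp rose 1.79-fold in RA (log2 0.72, SE 0.10, limma adjusted p = 9.77e-06). The 1.22-fold rise in WT (log2 0.24, SE 0.10, limma adjusted p = 0.0454) was lost with edgeR (BH-adjusted p = 0.0842), DESeq2 (0.104), the replicate block (limma, 0.0511) and total-read scaling (0.129). It was also lost without any 1 sample of normal WT, starved WT or starved RA, with estimates from 0.21 to 0.26. Without either starved RA sample the estimate stayed at 0.24, since those samples enter this comparison only through the shared spread. Quantile normalization moved the rise in WT to 0.41. The interaction of 0.48 (SE 0.15, limma adjusted p = 0.0114) was 0.29 with quantile normalization and was then not called (limma adjusted p = 0.109). Sphk2 shares 18% of the exon bases of Dbp on the other strand and was also higher under starvation, at 33.3 ± 0.091 against 19.6 ± 0.46 in WT and 32.5 ± 0.090 against 19.4 ± 0.77 in RA.

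**Figure D4:**
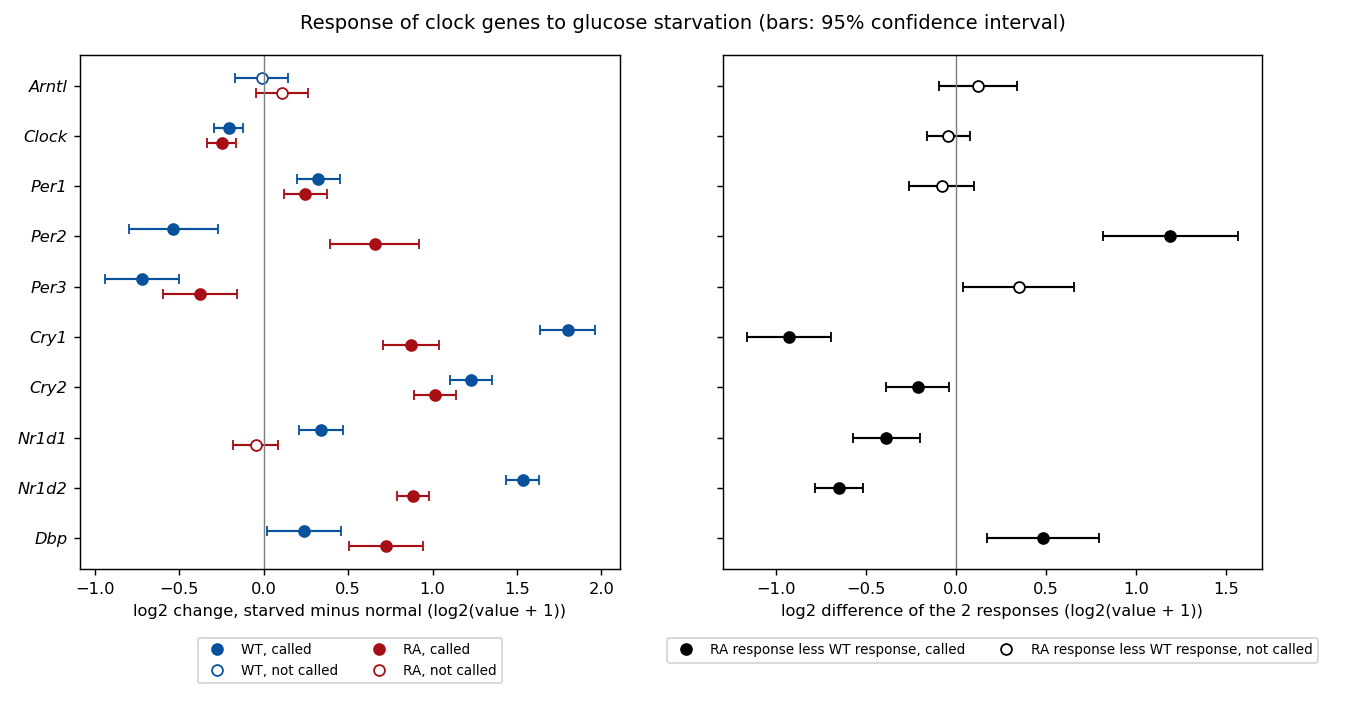
Log2 change of each clock gene under starvation in WT and RA cells (left) and the difference between these responses (right), on the scale of log2(value + 1). Points are limma estimates, bars are 95% intervals, and filled points passed a BH-adjusted p of 0.05. The interaction was -0.93 for Cry1 and 1.19 for Per2, with 0 inside the intervals of Arntl, Clock and Per1.

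The next question was how far the genotypes differ within each medium. In normal medium 1 member was called, Per3, which was lower in RA (log2 -0.34, SE 0.10, limma adjusted p = 0.0469), where 9.63% of all genes were called, 6.68% higher and 2.95% lower. Of the calls over all genes 69.4% were higher in RA as deposited and 40.4% with total-read scaling. The Per3 call was lost in 11 of 23 alternatives, among them a pseudocount of 0.1 (limma adjusted p = 0.0518) and no filter (0.165). It was also lost without either normal WT sample, replicate 2 of normal RA or either starved RA sample. The estimate was -0.26 and -0.43 without replicate 1 or 2 of normal WT, and -0.27 without replicate 2 of normal RA. Without either starved RA sample it stayed at -0.34, since those samples enter this comparison only through the shared spread. Per2, at -0.31 (95% interval -0.58 to -0.049), was not called (limma adjusted p = 0.13) and rested on the spread of normal WT. It was -0.50 and called without replicate 2 of that group (limma adjusted p = 0.0428), and -0.13 without replicate 1 (0.699). For the other 8 members the differences ran from -0.13 (Per1) to 0.10 (Arntl).

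Under starvation 9 members differed between RA and WT, 3 higher and 6 lower in RA, beside 62.9% of all genes, 30.8% higher and 32.1% lower. The exception was Per3, with a difference of 0.0039 (95% interval -0.22 to 0.22). Lower in RA were Cry1 (log2 -1.0, SE 0.078, limma adjusted p = 7.77e-09), Nr1d2 (-0.62, SE 0.045), Nr1d1 (-0.31, SE 0.062), Per1 (-0.21, SE 0.060), Cry2 (-0.18, SE 0.058) and Clock (-0.097, SE 0.040). Higher in RA were Per2 (log2 0.88, SE 0.12, limma adjusted p = 1.13e-05), Dbp (0.39, SE 0.10) and Arntl (0.22, SE 0.073, limma adjusted p = 0.0141). Starved samples of the genotypes did not overlap for any of these 9 genes. The calls rest on the same samples, so this adds nothing to them, and the share of all genes without overlap was not counted. The starved samples of this comparison also enter the responses above.

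Several of the small differences under starvation lost their call when 1 sample was left out or a setting was changed. The Clock difference (limma adjusted p = 0.0462) was lost with edgeR (BH-adjusted p = 0.115), without a filter (limma, 0.0584) and with total-read scaling (0.133). It was also lost without either normal WT sample, replicate 1 of starved WT or either starved RA sample. The estimate was -0.071 without replicate 1 of starved WT, and -0.10 and -0.092 without replicate 1 or 2 of starved RA. Without either normal WT sample it stayed at -0.097, since those samples enter this comparison only through the shared spread. Arntl was lost without replicate 2 of starved WT (0.0623) or of starved RA (0.147), and Cry2 without replicate 1 of starved WT (0.0935) or replicate 2 of starved RA (0.0931). Per1 was lost without replicate 1 of starved WT (0.0896). Quantile normalization moved Arntl to 0.081, Dbp to 0.20 and Clock to -0.053, none of them then called (limma adjusted p = 0.348, 0.102 and 0.262).

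Other genes of the clock were read from the same fit. Alternatives were read for the members only, so single calls in the wider lists were not checked against them. The wider lists held 37 genes in the table, of which 34 passed the filter. The 12 transcription factors of the loop included 10 tested genes, of which 7 rose and 2 fell under starvation in WT, and 7 rose and 3 were not called in RA. The shares called, 90% and 70%, stood beside 78.6% and 68.7% of all genes tested. The median over these 10 was 0.55 on the log2 scale for WT, with 0.62 for RA. In the interaction 8 of these 10 were called, 3 higher and 5 lower in RA, with a median of -0.12, where 50.6% of all genes were called, 24.5% higher and 26.1% lower. The 11 tested kinases, ubiquitin ligases and the deubiquitinase Usp2, which set the stability of PER and CRY proteins, had 7 genes higher and 2 lower in WT and 3 higher and 4 lower in RA. Of these 11 genes 4 (36.4%, below the 50.6% of all genes) were called in the interaction, each of the 4 lower in RA (Csnk1e, Csnk2b, Gsk3a and Gsk3b, named after their values were seen). Among 10 cofactors 3 rose and 5 fell in WT, and 2 rose and 6 fell in RA. Of the 3 output genes, 1 rose and 2 fell in WT, and 1 rose and 1 fell in RA. In the interaction 4 of the 10 cofactors were called (40%), 1 higher and 3 lower in RA. The 3 output genes were all called in the interaction, each higher in RA. Between genotypes 7 of the 34 were higher and 16 lower in RA under starvation (67.6% called, against 62.9% of all genes), and 2 were higher and 3 lower in normal medium (14.7%, against 9.63%).

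The ROR receptors and the E-box repressors of the DEC family act on the same elements as the members. Rora, a RORE activator, went from 1.74 and 1.67 to 17 and 15.6 in WT and from 1.70 and 1.61 to 7.05 and 7.85 in RA. Its log2 change of 2.68 in WT and 1.67 in RA gave an interaction of -1.01 (SE 0.16, limma adjusted p = 5.54e-05), the lowest of the wider lists. Rorb stood at 0.621 to 2.48 in all samples, with an interaction of 0.59 (SE 0.19, limma adjusted p = 0.018). Bhlhe41 (DEC2) rose by 1.56 in WT and 0.75 in RA, an interaction of -0.81 (SE 0.13, limma adjusted p = 6.84e-05). Gm43909 covers 19% of its exon bases on the other strand and stood at 1.51 ± 0.021 and 6.02 ± 0.22 in normal and starved WT and at 1.61 ± 0.45 and 3.32 ± 0.24 in RA, so it too was lower in starved RA than in starved WT. Its part in the Bhlhe41 values was not tested. Bhlhe40 (DEC1) moved further in RA, with a rise of 0.50 in WT and 0.98 in RA and an interaction of 0.48 (SE 0.072, limma adjusted p = 3.64e-05).

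Paralogs of the activators and the D-box factors completed the comparison. Arntl2, the paralog of Arntl, fell from 14.0 and 13.7 to 7.46 and 6.91 in WT, whereas in RA it was at 11.8 and 12.1 in normal medium and 10.9 and 11.2 under starvation. The change was -0.86 in WT (SE 0.086, limma adjusted p = 7.72e-08) and was not called in RA (-0.10, limma adjusted p = 0.313). The interaction of 0.76 (SE 0.12, limma adjusted p = 6.77e-05) was the highest of the wider lists. Npas2, the paralog of Clock, had 2 to 18 reads per sample and was not tested. Nfil3, a D-box repressor, rose by 1.32 in WT and 1.12 in RA, with an interaction of -0.20 (SE 0.077, limma adjusted p = 0.0418). Tef, a D-box activator like Dbp, rose by 0.56 in WT but by 0.34 in RA, and had an interaction of -0.23 (limma adjusted p = 0.014), opposite in sign to that of Dbp. Hlf, the other activator of that family, stood at 0.419 to 1.10 and was called in none of the 5 comparisons by limma, with unadjusted p-values no lower than 0.0591. Tipin, the partner of TIMELESS, had an interaction of -0.54 (SE 0.068, limma adjusted p = 6.32e-06). Ciart, an E-box repressor of the pair, was singled out after its values were seen. It had the highest rise of the wider lists, from 4.11 and 5.34 to 35.9 and 36.9 in WT and from 4.0 and 4.40 to 22.0 and 23.9 in RA. Its interaction was -0.51 (SE 0.14, limma adjusted p = 0.00706). The RefSeq window of Ciart held 3 E-boxes. That of Rora, which rose by 2.68 in WT, held no match, and both Tef windows held an E-box. Whether E-boxes go with the response was not tested.

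**Figure D5:**
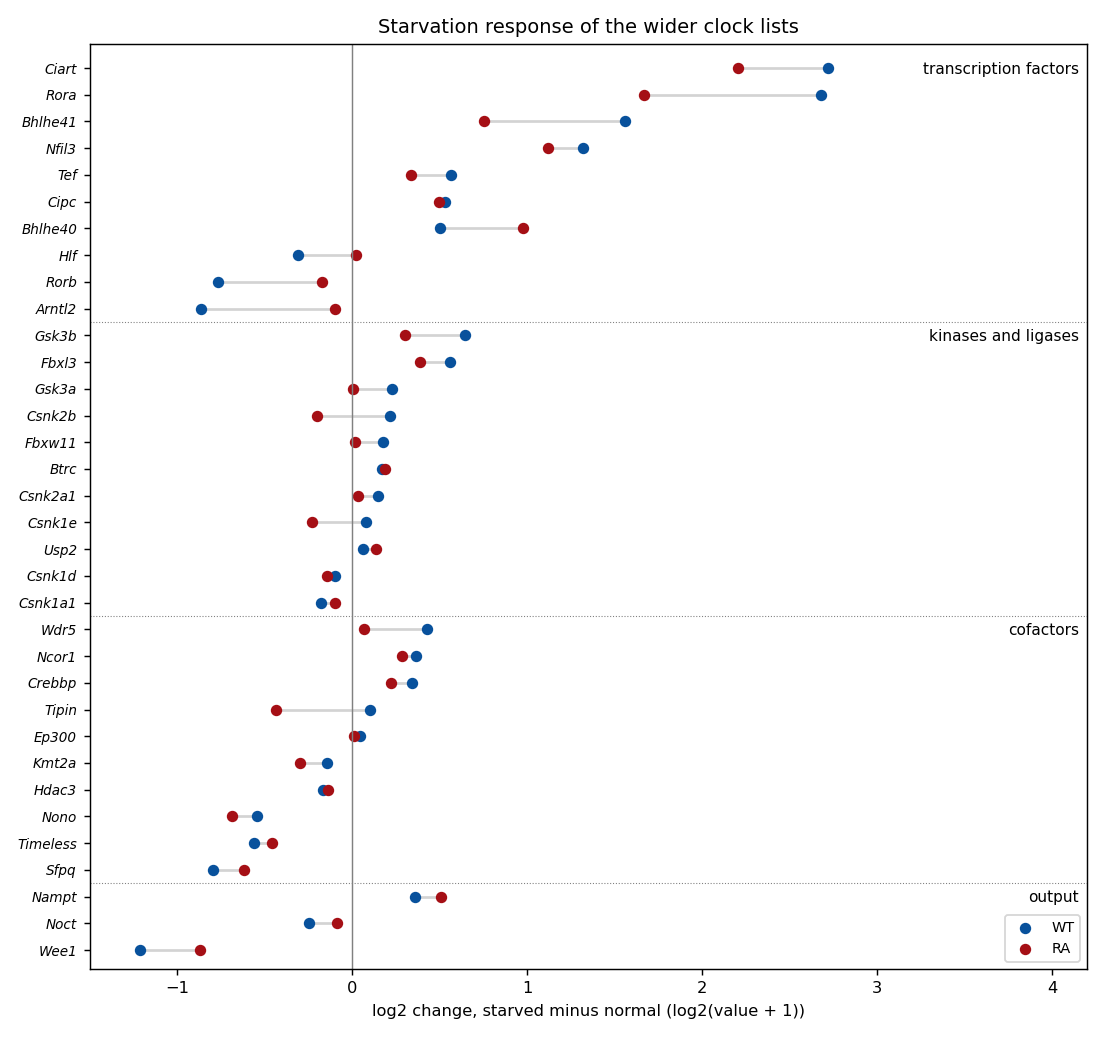
Log2 change under starvation, on the scale of log2(value + 1), of 34 genes of the wider clock lists in WT and RA cells. Each row is a gene, dots are limma estimates joined by a grey line, and genes are sorted by the WT change within each list. Ciart and Rora rose most in WT, by 2.72 and 2.68, and Arntl2 fell by 0.86 in WT.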

How the data were processed

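PolyA RNA of MEFs was sequenced with TruSeq libraries, with 2 replicates in each of 4 groups. Groups were taken from the genotype and medium labels. Per the submitters' processing notes TopHat2 (2.0.9), bedtools, edgeR and the mm9 build were used. The authors deposited a signal table of read counts over a scaled library size, on a CPM-like scale, with 49492 rows, 18085 of them at 0 in every sample and 26 named as dates. The counting tool and its handling of strand are not given in the sources used here. Sample totals ran from 965845 to 1029723, so the values were treated as normalized and not as plain CPM, which the design had assumed. Dividing by the step of each sample gave whole reads for 100% of values (tolerance 0.01). Between 78.2% and 80.5% of counts from 1 to 9 were even, and halved reads were therefore an alternative.

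Genes reaching 1 or more in 2 or more samples were tested with limma (3.58.1, R 4.3.3) on log2(value + 1), with a mean for each of the 4 groups over all 8 samples, trended eBayes and Benjamini-Hochberg adjustment over 16232 genes. Calls needed an adjusted p under 0.05. The 5 comparisons were starved against normal in WT and in RA, RA against WT in each medium, and the interaction. They share samples, so no overlap between them is given. The 8 samples form 4 groups of 2, so no correlation between members is given. Alternatives were other pseudocounts, filters, scalings and thresholds, a replicate block, edgeR (4.0.16) and DESeq2 (1.42.0) on recovered reads, and leaving out each sample. Scripts were tested on simulated data. Named genes are the 10 members, 9 paralogs or factors on the same elements, and up to 3 genes of the wider lists called each way in the interaction with the most extreme values. Of these, 1 gene is not reported here. The members and lists were chosen with earlier results of these data known. RefSeq promoters and GENCODE M21 exon lengths are on GRCm38 and were used by gene name only, separately from the mm9 alignments. The authors' own sequencing of other kinds was not used here. Replicates of a group differed by more than counting noise, and none were identical. Chi-square per degree of freedom was 3.42 in normal WT, 5.93 in starved WT, 6.36 in normal RA and 15.9 in starved RA. Starved RA, the highest, enters the RA response, the comparison of genotypes under starvation and the interaction. The fit used a spread shared by all 4 groups.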

Additional observations from a re-analysis of the deposited data

Results flagged for a closer look

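For 6 of the 10 clock genes starvation had an unequal effect in the genotypes, by the interaction in limma. As response in RA less response in WT on the scale of log2(value + 1), the differences were 1.19 for Per2, 0.48 for Dbp, -0.21 for Cry2, -0.39 for Nr1d1, -0.65 for Nr1d2 and -0.93 for Cry1. Among all genes tested 50.6% were called in the same comparison. Per2 was the member whose change had opposite signs that were both called, lower under starvation in both WT samples and higher in both RA samples. The Cry2 difference was lost in 15 of 22 alternatives. The order of Cry1, Nr1d2 and Nr1d1 below 0 held when any 1 sample was left out, with ranges of -1.06 to -0.80, -0.68 to -0.62 and -0.46 to -0.31.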

How the results depend on the processing

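Of the alternative values of single clock genes, 1028 kept their direction and their side of the threshold, 90 lost a call, 8 gained one and 14 turned sign, all 14 without a call. Leaving out a sample leaves 1 replicate in its group. Counts of members called are therefore not given for those fits. The single call for RA against WT in normal medium became 0 with a pseudocount of 0.1, no filter, a filter of 0.3, eBayes without trend, an adjusted p under 0.01, or a 2-fold change also required. With the 2-fold requirement 1 member was called between genotypes under starvation, 3 in the WT response, 1 in the RA response and 1 in the interaction, where 6.7%, 19.6%, 9.03% and 6.1% of all genes passed it.

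Signs turned as follows. With total-read scaling Cry2 and Nr1d2 in normal medium were -0.011 and -0.015, and the Clock interaction was 0.029. Per3 under starvation was -0.013 with median-ratio scaling, -0.014 with DESeq2, -0.17 with quantile normalization and -0.11 without replicate 2 of starved WT. With quantile normalization Arntl was 0.11 in the WT response and -0.012 in the interaction, and the Clock interaction was 0.032. Without replicate 2 of normal WT, Nr1d2 in normal medium was -0.00079 and the WT response of Arntl 0.012. Over the samples left out, Cry1 in normal medium ran from -0.20 to 0.054, Nr1d2 there from -0.00079 to 0.064, Per3 under starvation from -0.11 to 0.12, the WT response of Arntl from -0.038 to 0.012 and the RA response of Nr1d1 from -0.12 to 0.020. Cry1 in normal medium was 0.054 without replicate 1 of normal RA, and the RA response of Nr1d1 was 0.020 without replicate 2 of normal RA. The cause was not tested.

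Whether replicate numbers pair the samples is not given. Correlations of deviations between groups were low, from -0.0076 to 0.157 with a mean of 0.066. With replicate numbers as a block, RA against WT had 1 member called in normal medium and 9 under starvation, beside 12.7% and 64.7% of all genes. The WT response had 8, the RA response 8 and the interaction 7, beside 79.6%, 70.3% and 52.8%. Each of these shares of all genes was above that without the block. The Dbp call in the WT response was lost (limma adjusted p = 0.0511), the Per3 interaction of 0.35 was called (limma adjusted p = 0.0359), and no other call changed.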
